A study of Mus musculus with 16 samples.

Results

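The genes described here are 35 genes of glycolysis and the response to low oxygen, taken from a fixed list of glucose transporters, glycolytic enzymes, lactate handling genes, oxygen sensors and targets of the hypoxia-inducible factor (HIF). A gene was kept if it had at least 10 counts over the 16 tumors, and all 35 listed genes did, the lowest total being 927 counts for Car9. They are 35 of 22298 counted mouse genes, of which 16817 reached the same minimum. The tumors grew in the abdomen of 615-line mice (WT, 6 weeks old, female or male and sex-matched) that had received MFC cells, a murine gastric cancer line, into the peritoneal cavity. 8 tumors came from mice given PBS, called the vehicle group, and 8 from mice given IL-33 at 20 μg/kg into the peritoneal cavity every 2 days. RNA was selected with polyT, and reads were counted per gene. The model rests on a single cell line in its syngeneic strain, and the labels do not state that each tumor came from a separate mouse. The study's methods give fewer mice per group for the abdominal model than the 8 tumors sequenced here. Its appendix reports more than 8 per group for a survival experiment in this model. Whether tumors share a mouse is therefore not known. If they do, p-values, which measure the spread between tumors, would be too small.

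Glycolysis turns glucose into pyruvate, and lactate dehydrogenase turns pyruvate into lactate, which leaves the cell through monocarboxylate transporters. When oxygen is short, the prolyl hydroxylases encoded by Egln1 and Egln3 no longer mark HIF for destruction, and HIF then switches on glucose uptake, most glycolytic enzymes, and genes such as Car9, Vegfa and Bnip3. How far this program is on is known to vary between tumors with the metabolism of the cancer cells and the local blood supply. In bulk RNA, fewer cells that express a gene and less RNA per cell cannot be told apart.

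Both groups had similar depth, from 14139268 to 24290794 counts per vehicle tumor and from 16569613 to 24288893 per IL-33 tumor. IL-33 replicate 7 and vehicle replicate 4 stood apart. In IL-33 replicate 7 the 6 smooth muscle markers summed to 4841 CPM (counts per 1000000 of the TMM-scaled library) against at most 350.4 in any other tumor, the 6 fibroblast markers to 11478 against at most 6622, the 8 uterus and oviduct markers to 1288 against at most 6.64, and the 6 ovary markers to 694 against at most 7.52. The 6 proliferation markers were each lowest there, at a sum of 172 against 586 to 1263 elsewhere. In vehicle replicate 4 the 5 red blood cell markers summed to 20009 CPM against at most 2291 elsewhere and the 6 neutrophil markers to 726 against at most 164. The 9 epithelial markers, which should mark a carcinoma, were detected in the series at sums of 216 to 2420 CPM, highest in vehicle replicate 4. Those sums rest mainly on Krt8 and Krt19, with 134320 and 55078 counts over all tumors, against 2898 for Krt18, the next of the 9. Taken singly, 7 of the 9 markers were highest in IL-33 replicate 7, so the sum does not rank the tumors by carcinoma content. The library scaling factor of vehicle replicate 4 was 0.640 and that of IL-33 replicate 7 was 1.24, against 0.895 to 1.10 in the rest. The counts of genes called are given with and without these tumors, as are the values of single genes that they moved most, and the part of other tissue in the results was not tested.

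**Figure D1:**
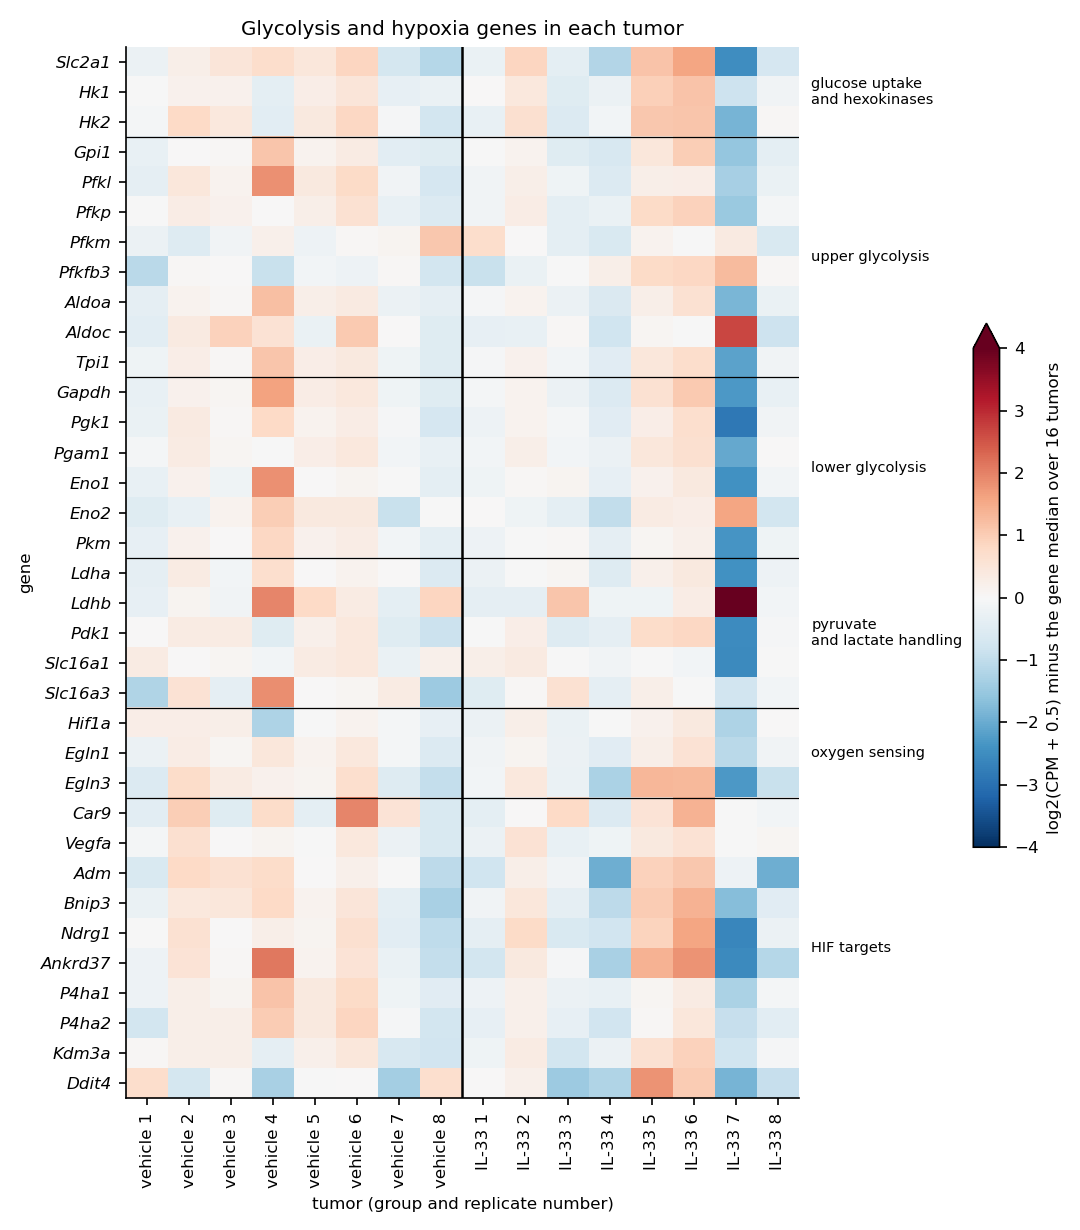
Level of each of the 35 genes (vertical axis, grouped by role) in each of the 16 tumors (horizontal axis), as log2(CPM + 0.5) minus the gene's median over the tumors, with red above and blue below that median; the scale stops at 4, which Ldhb in IL-33 replicate 7 exceeds. IL-33 replicate 7 is the lowest tumor for 25 genes, and tumors of both groups, among them vehicle replicate 6 and IL-33 replicates 5 and 6, are above the median for most genes.

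HIF binds a short DNA core, ACGTG or GCGTG, and windows in front of a few genes are shown because their levels across the tumors are compared later. RefSeq promoter windows on GRCm38.p6 were matched for 34 of the 35 genes, and the 250 bases before the first listed start of each were searched on both strands, so that CACGT and CACGC count as matches and the palindrome CACGTG, which is also the E-box of other factors, counts as 1. A match was found for 27 of the 34 genes (79.4%), against 52.1% of 12765 tested genes and 38.6% of all 27025 genes with a window. At least 2 matches were found for 17 of the 34 against 21.6% of the tested genes, with a median of 15 CpG dinucleotides per window against 14. All 5 genes of pyruvate and lactate handling, all 3 oxygen sensing genes and 8 of 9 HIF targets held a match, as did 2 of 3 glucose uptake and hexokinase genes, 5 of 8 genes of upper and 4 of 6 of lower glycolysis. In the windows printed here, 5′ to 3′ on the strand of the gene, capitals mark the matches.
Pgk1: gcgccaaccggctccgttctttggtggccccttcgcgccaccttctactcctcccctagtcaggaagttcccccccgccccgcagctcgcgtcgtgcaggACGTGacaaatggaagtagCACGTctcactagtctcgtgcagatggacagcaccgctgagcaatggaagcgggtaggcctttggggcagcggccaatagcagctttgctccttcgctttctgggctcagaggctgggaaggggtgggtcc
Egln1: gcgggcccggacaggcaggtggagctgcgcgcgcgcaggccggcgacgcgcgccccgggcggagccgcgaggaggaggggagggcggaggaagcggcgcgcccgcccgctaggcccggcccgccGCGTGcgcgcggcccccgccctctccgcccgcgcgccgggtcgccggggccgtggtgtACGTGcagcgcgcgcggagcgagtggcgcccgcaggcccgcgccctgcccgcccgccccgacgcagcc
Bnip3: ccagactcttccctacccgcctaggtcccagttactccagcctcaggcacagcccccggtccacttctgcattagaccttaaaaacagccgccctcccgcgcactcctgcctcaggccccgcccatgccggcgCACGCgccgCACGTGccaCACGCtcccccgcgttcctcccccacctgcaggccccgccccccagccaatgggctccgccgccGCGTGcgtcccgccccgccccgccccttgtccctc
Tpi1: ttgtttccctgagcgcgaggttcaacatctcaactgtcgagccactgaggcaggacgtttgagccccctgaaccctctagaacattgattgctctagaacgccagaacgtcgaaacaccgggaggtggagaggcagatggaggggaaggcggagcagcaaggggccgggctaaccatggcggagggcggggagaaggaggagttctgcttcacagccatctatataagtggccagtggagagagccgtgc
Ldhb: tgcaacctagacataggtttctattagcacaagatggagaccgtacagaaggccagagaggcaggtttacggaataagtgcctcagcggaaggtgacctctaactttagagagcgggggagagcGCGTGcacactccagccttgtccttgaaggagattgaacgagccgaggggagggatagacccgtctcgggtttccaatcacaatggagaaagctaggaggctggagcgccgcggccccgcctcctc
The window of Pgk1 (chrX:106186850-106187099, + strand) and that of Egln1 (chr8:124949255-124949504, - strand) held 2 matches each. That of Bnip3 (chr7:138909507-138909756, - strand) held 4, 1 of them the palindrome. The window of Tpi1 (chr6:124814159-124814408, - strand) held none, and that of Ldhb (chr6:142507958-142508207, - strand) held 1. A match is a sequence feature and not evidence of binding.

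Few of the 35 genes differed between the groups. By edgeR's quasi-likelihood test, 2 of 35 were higher with IL-33 at an unadjusted p under 0.05, Pfkfb3 and Ldhb, where 9.99% of all 16817 tested genes were higher, and 0 of 35 were lower, where 1.17% of all genes were lower. No gene of the 16817 passed after Benjamini-Hochberg adjustment, the smallest adjusted p being 0.418. The log2 fold change was above 0 for 15 genes and below 0 for 20, with a median of -0.12 against 0.06 over all tested genes. That split depended on the method, being 9 and 26 with limma voom and 4 and 31 with the replicate number as a block. EdgeR placed Slc2a1, Hk2, Pfkp, Aldoc, Eno2, Pdk1, Egln3, Bnip3, Ndrg1 and Ddit4 above 0. Their mean differences of log2(CPM + 0.5) between the groups were below 0. Without IL-33 replicate 7, 0 were higher (1.83% of all genes) and 1 was lower, Aldoc (2.29% of all genes), with a median of -0.07. Without both outlying tumors 0 were higher (2.10% of all genes) and 0 lower (2.09%), with a median of 0.08 against 0.01 over all genes. Of the 35 fold changes, 22 were then above 0 and 13 below. Without vehicle replicate 4 alone, Pfkfb3 and Ldhb were higher (8.73% of all genes) and 0 were lower (0.662%).

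**Figure D2:**
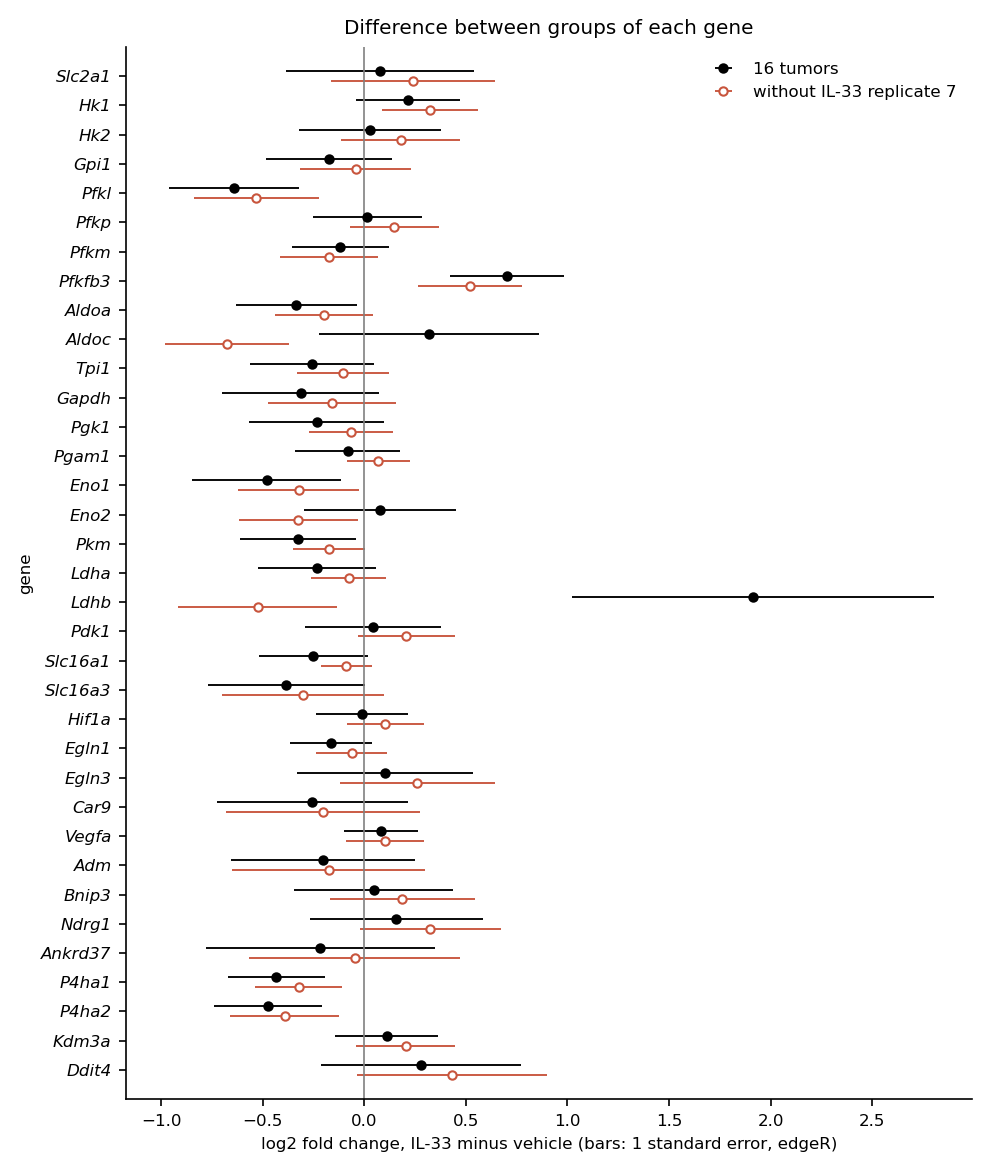
Log2 fold change of each gene (horizontal axis, IL-33 minus vehicle, bars of 1 standard error from edgeR) with all 16 tumors (black) and without IL-33 replicate 7 (open red). Most bars cross 0, and leaving out the single tumor moves Ldhb from 1.91 to -0.53 and Aldoc from 0.32 to -0.68.

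Slc2a1 encodes the main glucose transporter of tumor cells, and Hk1 and Hk2 the hexokinases that trap glucose by phosphorylation. Slc2a1 ranged from 165 to 672 CPM in vehicle tumors (median 468) and from 65.0 to 1092 in IL-33 tumors (median 292), with the lowest and the highest value of the series both in the IL-33 group. Its log2 fold change was 0.08 ± 0.46 (SE, n = 8 tumors per group, unadjusted p = 0.871), and 0.24 ± 0.40 without IL-33 replicate 7. The mean difference of log2(CPM + 0.5) of Slc2a1 over all tumors was -0.26 (exact permutation p = 0.631). Hk2 ranged from 63.8 to 187 CPM (median 121) in vehicle tumors and from 29.2 to 231 (median 104) in IL-33 tumors, and Hk1 from 145 to 267 (median 200) and from 107 to 425 (median 184). For all 3 genes the groups overlapped, the lowest IL-33 tumor was replicate 7 and the highest replicate 6.

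In upper glycolysis, Pfkfb3 had the smallest p of the 35 genes. It encodes the kinase that makes the main allosteric activator of phosphofructokinase, and lies on chr2:11471433-11554077 (- strand, ENSMUSG00000026773, GRCm38). Vehicle tumors ranged from 8.19 to 18.4 CPM (median 15.7) and IL-33 tumors from 9.37 to 42.7 (median 19.6). 4 of 8 IL-33 tumors, replicates 4, 5, 6 and 7, lay above every vehicle tumor, with 30.5, 31.5 and 42.7 CPM in replicates 5, 6 and 7, while the others overlapped with the vehicle group. The log2 fold change was 0.70 ± 0.28 (unadjusted p = 0.022, edgeR, adjusted p = 0.418), and a two-sided exact permutation test over 12870 assignments gave p = 0.057. Without IL-33 replicate 7, which held the highest value, it was 0.52 ± 0.26 (unadjusted p = 0.059), and without vehicle replicate 4 it was 0.63 (unadjusted p = 0.041).

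The phosphofructokinase genes themselves, which catalyze the committed step, did not pass the test. Pfkl, the liver-type subunit, ranged from 175 to 1003 CPM (median 339) in vehicle tumors and from 113 to 336 (median 255) in IL-33 tumors. None of the 8 IL-33 tumors exceeded the vehicle mean, which was raised by vehicle replicate 4, the tumor at 1003 CPM. The log2 fold change was -0.64 ± 0.32 (unadjusted p = 0.060), -0.53 without IL-33 replicate 7 (unadjusted p = 0.103) and -0.29 without vehicle replicate 4 (unadjusted p = 0.254), and it passed the test as lower without vehicle replicate 1, 7 or 8. Pfkp, the platelet-type subunit, had a log2 fold change of 0.01 ± 0.27, and Pfkm, the muscle-type subunit, -0.12 ± 0.24. Pfkm shares its locus with Senp1 on the opposite strand, which had 15583 counts against 9490 for Pfkm. Since the use of strand in counting was not stated, reads of such pairs cannot be told apart.

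Of the remaining genes of upper glycolysis, the isomerases and aldolases, Gpi1 (glucose-6-phosphate isomerase) had a log2 fold change of -0.17 ± 0.31, Aldoa (the main aldolase) -0.33 ± 0.30 and Tpi1 (triosephosphate isomerase) -0.26 ± 0.31, and none passed the test. Their levels in vehicle tumors reached from 625 to 1905 CPM for Gpi1, from 1802 to 5357 for Aldoa and from 965 to 2896 for Tpi1, each highest in vehicle replicate 4. Without that tumor the log2 fold changes were 0.04 for Gpi1, -0.11 for Aldoa and -0.07 for Tpi1. Aldoc, the aldolase typical of brain, was a low gene, from 2.23 to 7.48 CPM in vehicle tumors (median 3.91) and from 1.65 to 3.57 in 7 IL-33 tumors, with 24.2 in IL-33 replicate 7. With that tumor its log2 fold change was 0.32 ± 0.54 (unadjusted p = 0.562), and without it -0.68 ± 0.31 (unadjusted p = 0.042, edgeR, with an exact permutation p of 0.077). The direction of Aldoc therefore turned on 1 tumor, and its tumors held as few as 32 counts.

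Lower glycolysis held Gapdh, the most abundant of the 35 genes per kilobase of exon. On that scale the median vehicle level was 1421 CPM for Gapdh, 784 for Pgk1, 649 for Pkm (pyruvate kinase), 455 for Pgam1 (phosphoglycerate mutase) and 266 for Eno1 (enolase), and 1.45 for Eno2, the neuronal enolase. Pgk1, phosphoglycerate kinase, ranged from 1051 to 2891 CPM (median 1759) in vehicle tumors and from 226 to 2642 (median 1546) in IL-33 tumors. The groups overlapped over most of their range, and IL-33 replicate 7 alone lay below the lowest vehicle tumor. For Pgk1 the log2 fold change was -0.23 ± 0.33 (unadjusted p = 0.491) and -0.07 ± 0.21 without that tumor (unadjusted p = 0.751). Gapdh (-0.31 ± 0.39), Pgam1 (-0.08 ± 0.26), Pkm (-0.33 ± 0.28) and Eno2 (0.08 ± 0.38) did not pass the test either. Without vehicle replicate 4 the values were 0.0044 for Gapdh, -0.19 for Pkm and 0.25 for Eno2, and without IL-33 replicate 7 that of Eno2 was -0.33.

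Eno1 and its near-identical copy Eno1b could have shared reads. The ratio of Eno1 to Eno1b counts lay between 0.758 and 0.955 in 15 tumors and was 1.505 in vehicle replicate 4. Eno1 alone had a log2 fold change of -0.48 ± 0.37 (unadjusted p = 0.208), and of -0.06 without vehicle replicate 4 (unadjusted p = 0.847). The summed level of both ranged from 2433 to 8474 CPM (median 3112) in vehicle tumors and from 545 to 4182 (median 3127) in IL-33 tumors, and its log2 difference was -0.41 with an exact permutation p of 0.417. Aldoa, Gapdh, Ldha, Pgam1, Pkm and Tpi1 also have processed pseudogenes, so that their counts depend on how reads with several matches were treated.

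**Figure D3:**
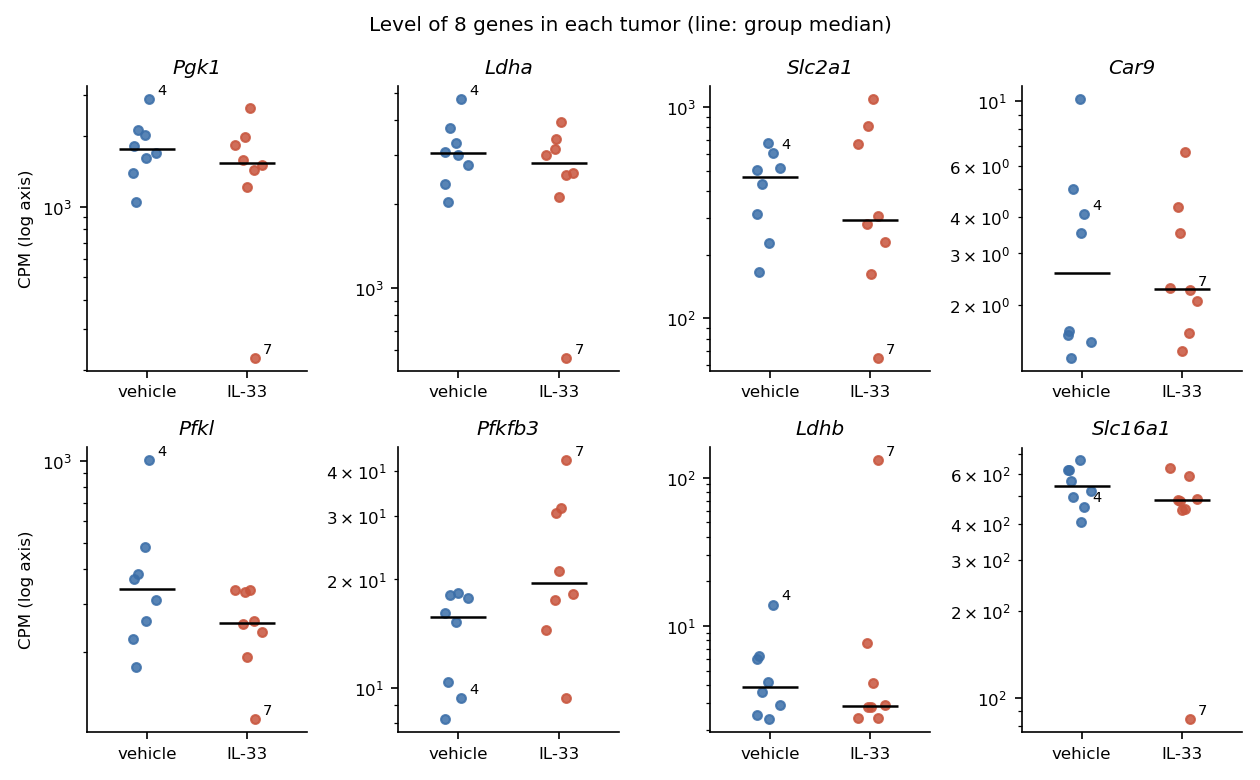
CPM of 8 genes in each tumor (vertical log axis) by group, 1 point per tumor with a line at the group median; vehicle replicate 4 and IL-33 replicate 7 are marked by their number. The groups overlap for every gene shown, IL-33 replicate 7 lies far below the rest for Pgk1, Ldha, Slc2a1 and Slc16a1, and far above for Ldhb at 131 CPM.

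Among the genes that handle pyruvate and lactate, Ldha, the lactate dehydrogenase subunit typical of glycolytic tissue, ranged from 2039 to 4748 CPM (median 3031) in vehicle tumors and from 562 to 3926 (median 2791) in IL-33 tumors, with overlapping groups. The difference on the log2 scale was -0.23 ± 0.29 (unadjusted p = 0.437). Ldhb, the subunit typical of heart, was nearly absent by comparison, with a median vehicle level per kilobase of exon of 2.48 CPM against 916 for Ldha. Vehicle tumors ranged from 2.34 to 13.9 CPM (median 3.89), and 7 IL-33 tumors from 2.40 to 7.62, while IL-33 replicate 7 had 131.

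The call of Ldhb (chr6:142490249-142507957, - strand, ENSMUSG00000030246) thus rested on that tumor. The log2 fold change was 1.91 ± 0.89 (unadjusted p = 0.046, adjusted p = 0.434, edgeR) with all tumors and -0.53 ± 0.39 (unadjusted p = 0.199) without it, and the exact permutation test on all 16 gave p = 0.841. The vehicle mean was exceeded in 2 of 8 IL-33 tumors, and the call was also lost when any 1 vehicle tumor other than replicate 4 was left out. Slc16a1, which encodes the monocarboxylate transporter of most cells, ranged from 407 to 666 CPM (median 544) in vehicle tumors and from 449 to 629 in 7 IL-33 tumors, with 84.0 in IL-33 replicate 7. The change of Slc16a1 was -0.25 ± 0.27 (unadjusted p = 0.364) and -0.09 ± 0.13 (unadjusted p = 0.491) without that tumor. Slc16a3, the lactate exporter induced by hypoxia (-0.38 ± 0.39), and Pdk1, which keeps pyruvate out of the mitochondria (0.04 ± 0.33), did not pass the test, and without vehicle replicate 4 the value of Slc16a3 was 0.08.

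The oxygen sensing genes did not differ detectably between the groups. Hif1a, the oxygen-regulated subunit, ranged from 123 to 349 CPM in vehicle tumors (median 306) and from 123 to 383 in IL-33 tumors (median 292), and both groups had a single low tumor, vehicle replicate 4 and IL-33 replicate 7. For Hif1a the log2 fold change was -0.01 ± 0.23 (unadjusted p = 0.956). Hif1a is controlled mainly through its protein, which these data do not measure. The hydroxylase genes Egln1 and Egln3, themselves HIF targets, had log2 fold changes of -0.16 ± 0.20 (unadjusted p = 0.426) and 0.10 ± 0.43 (unadjusted p = 0.815).

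No HIF target passed the test in either direction with all tumors. Car9, the carbonic anhydrase used as a hypoxia marker, was the lowest of the 35 genes per kilobase of exon, at a vehicle median of 1.12 CPM. It ranged from 1.31 to 10.2 CPM (median 2.58) in vehicle tumors and from 1.39 to 6.71 (median 2.26) in IL-33 tumors, with vehicle replicate 6 and IL-33 replicate 6 at the top, and differed by a log2 fold change of -0.26 ± 0.47 (unadjusted p = 0.593). Vegfa, the angiogenic growth factor, had the smallest SD of the 35 genes over all 16 tumors (0.36 on the log2 scale), though not without the 2 outlying tumors (0.38, against 0.22 for Slc16a1, then the smallest). It ranged from 61.0 to 145 CPM (median 92.4) in vehicle and from 76.1 to 140 (median 95.7) in IL-33 tumors, with a log2 fold change of 0.08 ± 0.18 (unadjusted p = 0.665). The vasodilator peptide gene Adm (-0.20 ± 0.45), the mitophagy gene Bnip3 (0.05 ± 0.39) and the stress gene Ndrg1 (0.16 ± 0.43) had wide errors.

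Ankrd37, an ankyrin repeat gene known as a HIF target, had the largest SD of the targets over all 16 tumors (1.196 on the log2 scale), though not without the 2 outlying tumors (0.90, against 0.98 for Adm). It ranged from 11.7 to 101 CPM (median 24.5) in vehicle and from 3.49 to 80.8 (median 18.1) in IL-33 tumors, with a log2 fold change of -0.22 ± 0.56 (unadjusted p = 0.706), which was 0.27 without vehicle replicate 4. Ankrd37 overlaps Lrp2bp and Ufsp2 on the opposite strand, which had 14296 counts together against 8076 for Ankrd37. The collagen prolyl hydroxylase genes P4ha1 and P4ha2 came nearest to the threshold among the targets, at -0.43 ± 0.24 (unadjusted p = 0.089) and -0.47 ± 0.27 (unadjusted p = 0.093). For each of these, 1 of 8 IL-33 tumors lay above the vehicle mean, vehicle replicate 4 was the highest tumor, and without it the values were -0.27 (unadjusted p = 0.245) and -0.33 (unadjusted p = 0.225). P4ha2 passed as lower without vehicle replicate 1 or 8 or IL-33 replicate 6, and P4ha1 without vehicle replicate 8. The histone demethylase gene Kdm3a (0.11 ± 0.25) and Ddit4, an inhibitor of mTOR signaling (0.28 ± 0.49), did not pass.

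Within each group the tumors differed widely. On the log2 scale the median SD of the 35 genes was 0.53 within the vehicle group, against 0.38 for all tested genes, and 0.84 within the IL-33 group, against 0.44. Without the outlying tumor of each group these values were 0.48 against 0.24 in vehicle tumors and 0.50 against 0.29 in IL-33 tumors. Taken as the median deviation of the 35 genes from their own medians, IL-33 replicate 7 was lowest at -1.55, followed by vehicle replicate 8 at -0.56 and IL-33 replicate 4 at -0.44. The highest were vehicle replicate 4 at 0.72, IL-33 replicate 6 at 0.67, IL-33 replicate 5 at 0.44 and vehicle replicate 6 at 0.42. High and low tumors were thus found in both groups, and in vehicle replicate 6 and IL-33 replicate 5 respectively 34 and 33 of the 35 genes lay above their own median.

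The position of the outlying tumors depended in part on the scaling. With total counts in place of TMM, IL-33 replicate 7 stayed lowest at -1.29 and IL-33 replicate 6 was highest at 0.46, but vehicle replicate 4 fell to 0.08. With TMM, vehicle replicate 4 was the highest tumor for 13 of the 35 genes and 20.9% of all tested genes, and with total counts for 5 of the 35 and 9.82% of all. As a share of each tumor's total counts, the 35 genes took 0.727% in IL-33 replicate 7 and 1.85% to 3.85% elsewhere. That tumor was the lowest tumor for 25 of the 35 genes and for 20.7% of all tested genes, and the highest for 4 of the 35, Aldoc, Eno2, Ldhb and Pfkfb3, and for 33.99% of all. The sums of stromal and reproductive tract markers were highest in this tumor, as given earlier, and their part in these levels was not tested.

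Most of the genes varied together from tumor to tumor. Pgk1, both a glycolytic enzyme and a HIF target, was used as the reference, and Pearson's r of log2(CPM + 0.5) was computed for each of the other 34 genes over 16 tumors. 24 of the 34 were positively correlated at an unadjusted permutation p under 0.05, where 11.0% of 16816 tested genes were, and 0 were negatively correlated, where 23.4% of all genes were. After adjustment over all 16816 genes 20 of the 34 remained, against 2.72%. The median r was 0.82 over the 34 genes and -0.11 over all genes. Without IL-33 replicate 7, 27 of 34 were positively correlated (10.2% of all genes) and 0 negatively (11.4%), 19 after adjustment (1.73%), with a median r of 0.78 against -0.04.

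**Figure D4:**
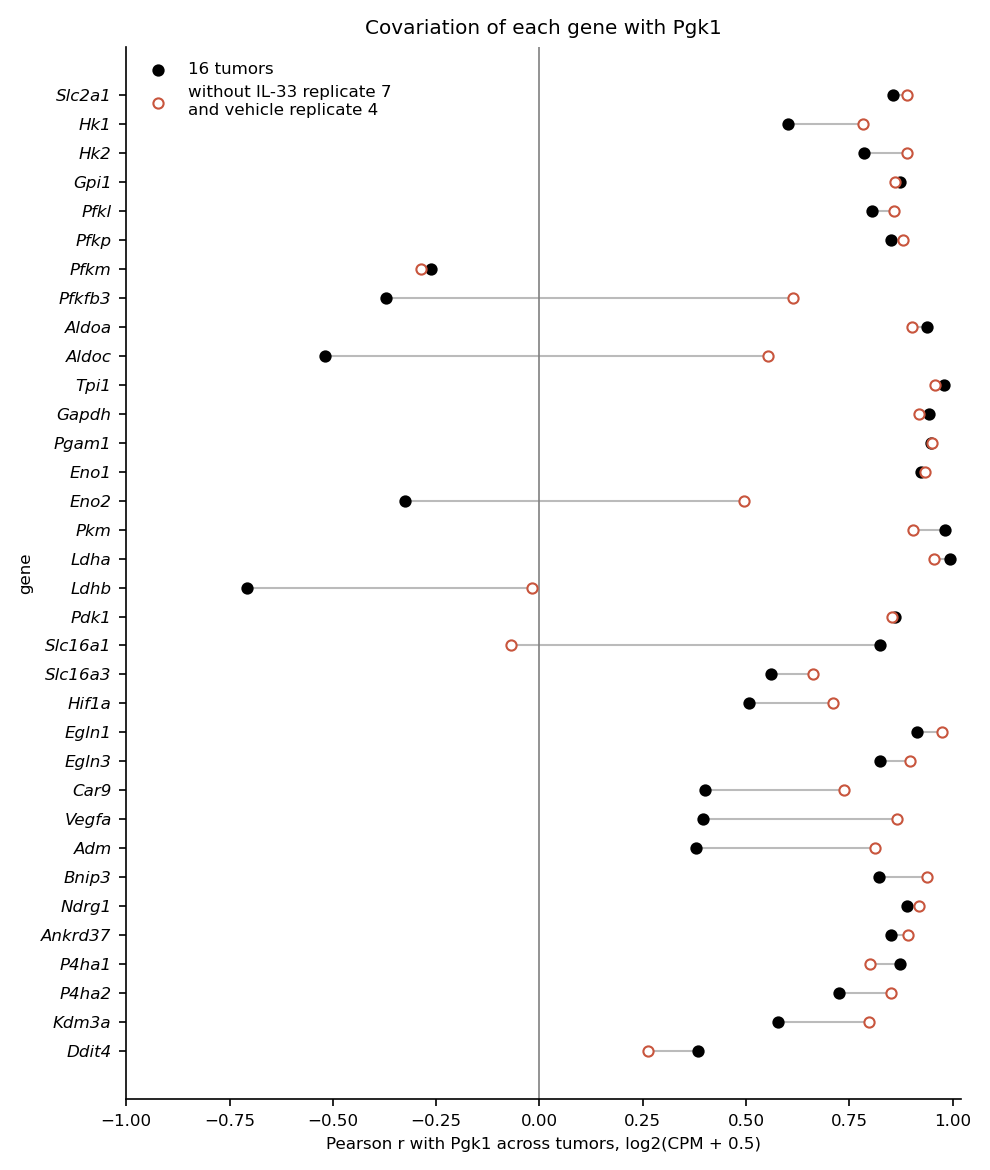
Pearson's r of each of 34 genes with Pgk1 (horizontal axis), over 16 tumors (black) and over the 14 tumors left without IL-33 replicate 7 and vehicle replicate 4 (open red), joined by a line. The enzymes of lower glycolysis other than Eno2 lie at 0.90 or above in both, Slc16a1 falls from 0.82 to -0.07 and Vegfa rises from 0.40 to 0.87.

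The closest relations were with other enzymes of the pathway. Ldha had r = 0.99 and rho = 0.95 with Pgk1, Pkm 0.98 and 0.96, and Tpi1 0.98 and 0.95, each at a permutation p of 1e-05, the smallest that 100000 resamples can give. The adjusted p was 0.0031 for each. Pgam1, Gapdh, Aldoa and Eno1 had r between 0.92 and 0.95. IL-33 replicate 7 and vehicle replicate 4 were the tumors farthest from the median of Pgk1, and without them r was 0.96 for Ldha, 0.96 for Tpi1 and 0.90 for Pkm. Within the vehicle group r was 0.98 for Ldha (exact permutation p = 0.0001, n = 8) and within the IL-33 group it was 0.99 (exact permutation p = 0.0001, n = 8), so the relation of Ldha to Pgk1 was present in each group. Tpi1, whose window printed earlier held no core, was among the genes closest to Pgk1.

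The oxygen sensor Egln1 followed Pgk1 closely, with r = 0.91 and rho = 0.97 over all tumors and r = 0.97 without the 2 farthest tumors. Slc2a1 (r = 0.86, rho = 0.85), Bnip3 (0.82 and 0.90), Ndrg1 (0.89 and 0.88), Ankrd37 (0.85 and 0.95) and Egln3 (0.82 and 0.89) also followed it. Each of these kept a positive r without the 2 farthest tumors, from 0.89 for Slc2a1 to 0.94 for Bnip3. Car9, Vegfa and Adm did not pass with all tumors, at r = 0.40, 0.40 and 0.38, but their rho was 0.73, 0.76 and 0.86, and without IL-33 replicate 7 r was 0.70, 0.75 and 0.80. In that tumor Pgk1 was lowest while Car9, Vegfa and Adm were at 2.25, 92.4 and 6.93 CPM, inside the range of the other tumors.

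Some genes did not follow Pgk1 over all tumors. Slc16a1 had r = 0.82 (unadjusted p = 0.047) over all tumors, rho = 0.11, and r = -0.18 without IL-33 replicate 7, so its relation rested on that tumor. Pfkm (r = -0.26), Pfkfb3 (-0.37), Aldoc (-0.52), Eno2 (-0.33) and Ldhb (-0.71) were the 5 genes with r below 0. Without the 2 farthest tumors, Pfkfb3, Aldoc and Eno2 had r = 0.61, 0.55 and 0.50, Ldhb -0.02 and Pfkm -0.29. Ddit4 had r = 0.38 over all tumors, -0.70 within the vehicle group (exact permutation p = 0.051) and 0.67 within the IL-33 group (exact permutation p = 0.048), and the difference between the groups was not tested. Hif1a had r = 0.51 over all tumors (permutation p = 0.086), -0.12 without IL-33 replicate 7 and 0.71 without the 2 farthest tumors (permutation p = 0.0042), so its relation depended on which tumors were included.

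Ratios of isozymes within a tumor do not depend on the scaling between tumors, and 7 were compared, as counts per kilobase of exon. None differed between the groups by the exact permutation test, the lowest p being 0.112 for Pfkp over Pfkl (adjusted over the 7 ratios 0.786). That ratio ranged from 0.0766 to 0.345 (median 0.245) in vehicle tumors and from 0.230 to 0.436 (median 0.295) in IL-33 tumors, with vehicle replicate 4 far below the rest. All 8 IL-33 tumors lay above the vehicle mean of the log2 ratio, but 5 of 8 did so without vehicle replicate 4. The log2 difference was 0.41, and it fell to 0.18 without vehicle replicate 4 (exact permutation p = 0.224) and was 0.49 without vehicle replicate 1 (exact permutation p = 0.044).

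The ratio of Ldhb to Ldha was between 0.00164 and 0.00646 in the vehicle tumors and at most 0.00510 in 7 IL-33 tumors, but 0.490 in IL-33 replicate 7. The same tumor had the highest ratio of Eno2 to Eno1, at 0.0886 against at most 0.00687 elsewhere, and of Aldoc to Aldoa, at 0.0334 against at most 0.00255. It also had the lowest ratio of Hk2 to Hk1, at 0.390 against 0.577 to 1.23 elsewhere. For Hk2 over Hk1 the log2 difference between groups was -0.23 (exact permutation p = 0.254), for Pfkm over Pfkl 0.41 (exact permutation p = 0.374) and for Slc16a3 over Slc16a1 0.32 (exact permutation p = 0.535).

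**Figure D5:**
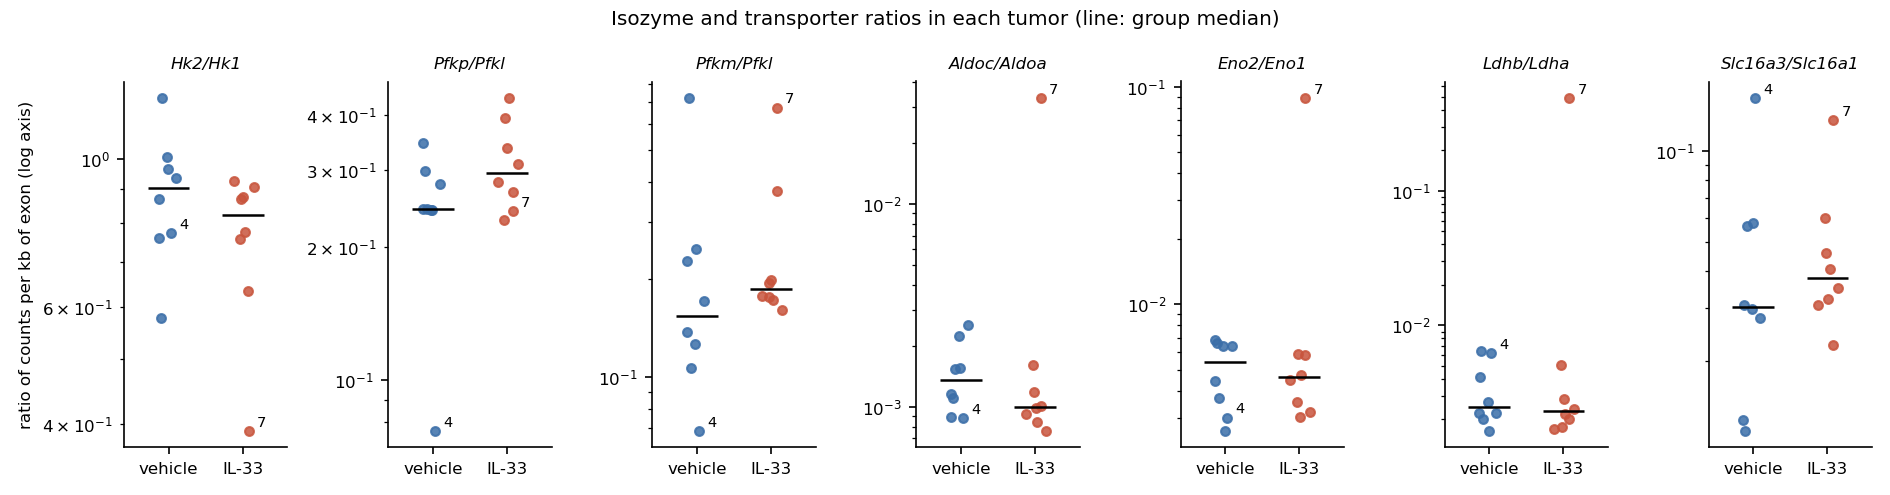
The 7 ratios in each tumor (vertical log axis, counts per kilobase of exon) by group, 1 point per tumor with a line at the group median; vehicle replicate 4 and IL-33 replicate 7 are marked by their number. IL-33 replicate 7 stands far above the rest for Aldoc/Aldoa, Eno2/Eno1 and Ldhb/Ldha, and vehicle replicate 4 far below for Pfkp/Pfkl.

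A further 58 genes of glycolysis and hypoxia served as a wider list, of which 57 were tested. Of these, 2 were higher (Pklr and Arnt2) and 1 lower (Bpgm) at an unadjusted p under 0.05, where 9.99% of all tested genes were higher and 1.17% lower. The log2 fold change was above 0 for 39 and below 0 for 18, with a median of 0.11 against 0.06 over all tested genes. Bpgm, which makes the bisphosphoglycerate of red blood cells, ranged from 27.0 to 35.3 CPM (median 31.4) in vehicle tumors and from 13.96 to 34.7 (median 26.1) in IL-33 tumors, and 1 of the 8 exceeded the vehicle mean. For Bpgm the log2 fold change was -0.31 ± 0.14 (unadjusted p = 0.047, adjusted p = 0.439, edgeR), and it lay between -0.39 and -0.22 with 1 tumor left out. The call was lost with upper-quartile and total-count scaling, filterByExpr, the replicate block and voom, without any 1 vehicle tumor other than replicate 2, and without IL-33 replicate 4, 5, 6 or 8. Arnt2, a partner of HIF typical of neurons and kidney, reached 29.4 CPM in IL-33 replicate 7 and had a median of 1.67 in IL-33 and 1.18 in vehicle tumors, and its log2 fold change fell from 2.01 (unadjusted p = 0.012) to 0.34 (unadjusted p = 0.282) without that tumor. Pklr, the pyruvate kinase of liver and red blood cells, had no count in any vehicle tumor, and 90.3% of its counts in the IL-33 group lay in replicate 7.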

How the data were processed

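The authors deposited 1 file per tumor with unnormalized read counts per gene. The submitters' processing notes name HISAT2, featureCounts and mm10, and the use of strand is not given in the sources used here. Samples were assigned to groups from their titles. Gene identifiers were matched to GENCODE M21 (GRCm38), which also gave exon lengths. Genes whose counts summed to 10 or more were tested with edgeR 4.0.16 (R 4.3.3) with TMM factors, glmQLFit and glmQLFTest, and p-values were adjusted by Benjamini-Hochberg over all tested genes. A call is an unadjusted p under 0.05, since no gene passed adjustment. CPM is counts per 1000000 of the TMM-scaled library. Single genes and ratios were compared by two-sided exact permutation tests of log2(CPM + 0.5) or log2 ratios, and correlations by 100000 resamples, or all orders within a group, adjusted over all tested genes (scipy 1.17.1). Alternatives were DESeq2 1.42.0, limma 3.58.1 voom with sample quality weights, other scalings and filters, the replicate number as a block, another pseudocount, and each tumor left out. The scripts were tested on simulated data. No 2 libraries agreed within sampling noise (lowest chi-square per degree of freedom 8.79). The depth of 14139268 to 24290794 counts per tumor leaves counting error small except for low genes, among them Car9, Adm, Aldoc, Ldhb and Eno2. The named genes are all 35 members and, of the wider list, those with an unadjusted p under 0.05. The members and lists were chosen with earlier results of these data known. Promoter sequences are from RefSeq (GRCm38.p6).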

Additional observations from a re-analysis of the deposited data

Results flagged for a closer look

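In each group of 8 tumors, a tumor was singled out where its gap to the nearest other tumor relative to the group's whole range exceeded Dixon's critical value at 95% on the log2 scale. Of 84 groups tested (35 genes and 7 ratios in each group), 23 had such a tumor, or 27.4%. Normally distributed values would give about 1 in 20. The same share was not computed over all tested genes, so no excess particular to these genes can be read from it. The genes share tumors, so the 84 groups are not independent, and 17 of the 23 were IL-33 replicate 7. Over all tested genes, IL-33 replicate 7 was the highest tumor for 33.99% and the lowest for 20.7%. That tumor was far below the other IL-33 tumors for Tpi1 (304 CPM), Gapdh (1099), Pgk1 (226), Pgam1 (211), Eno1 (264), Pkm (591), Ldha (562), Pdk1 (15.9), Slc16a1 (84.0), Hif1a (123) and P4ha1 (88.0), and for the ratio Hk2/Hk1 (0.390). It was far above them for Aldoc (24.2 CPM) and Ldhb (131) and for the ratios Aldoc/Aldoa (0.0334), Eno2/Eno1 (0.0886) and Ldhb/Ldha (0.490). The tumor's marker sums of smooth muscle, fibroblast, adipocyte (1652 CPM against at most 288 elsewhere), endothelium (623 against at most 216), uterus and oviduct, and ovary were the highest of the series, and their part in these values was not tested.

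Vehicle replicate 4 was far above the other vehicle tumors for Aldoa (5357 CPM), Gapdh (16364) and Eno1 (5091), and far below for Hif1a (123) and for the ratio Pfkp/Pfkl (0.0766). It had the fewest genes with a count, 14701, and the smallest mitochondrial share of counts, 1.51%. Vehicle replicate 8 was far above for Pfkm (63.3 CPM), and its skeletal muscle markers summed to 1024 CPM, the highest of the series; Pfkm is the muscle-type subunit, and the part of muscle in this value was not tested.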

How the results depend on the processing

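Upper-quartile and total-count scaling and both filters changed no sign among the 35 genes and kept the calls of Pfkfb3 and Ldhb. The number higher (2) became 1 with DESeq2, 1 with the replicate block, 0 with limma voom and 0 without both outlying tumors, and the number lower (0) became 1 with DESeq2 (Pfkl). With each tumor left out in turn, 0 to 2 were higher and 0 to 3 lower. Of all genes, 1.83% to 11.3% were then higher and 0.662% to 2.29% lower. The 3 lower were found without vehicle replicate 8, where 1.19% of all genes were lower. Ldhb lost its call when any 1 vehicle tumor other than replicate 4 was left out. Without IL-33 replicate 7 the calls of Pfkfb3 and Ldhb were lost, without vehicle replicates 1, 7 or 8 Pfkl was lower (P4ha2 too without 1, P4ha1 and P4ha2 without 8), and without IL-33 replicate 6 P4ha2 was lower. Ldhb reversed to -0.55 with DESeq2, -0.069 with the block, -0.42 with voom, -0.14 without both tumors and -0.53 without IL-33 replicate 7, between which and 2.24 it lay with 1 tumor left out. Aldoc lay between -0.68 and 0.48. Of the 35 genes, 25 changed sign under at least 1 of 24 alternatives; the cause was not tested. Of the wider list, the number higher (2) was 1 with DESeq2, filterByExpr and without both tumors, and 0 with the block and voom. The number lower (1) was 2 with DESeq2 and no filter, and 0 with upper-quartile and total-count scaling, filterByExpr, the block and voom. Leaving out 1 tumor gave 1 to 4 higher and 0 to 2 lower. For both lists, the shares of all genes higher and lower were 2.52% and 1.59% with DESeq2 and 3.89% and 1.11% with filterByExpr. They were 3.10% and 2.64% with voom, and 1.46% and 0.428% with the block. They were 10.4% and 1.11% with upper-quartile scaling, 11.7% and 0.601% with total counts, and 9.84% and 1.35% without a filter. The shares without both tumors and with 1 tumor left out are given above. No setting gave an adjusted call. Of the 7 ratios, 0 to 1 passed with 1 tumor left out and 0 with 0.5 counts added or sign flips of the replicate block. The number correlated with Pgk1 (24) was 22 to 27 with 1 tumor left out, 20 with total counts, 24 with a pseudocount of 2, and 19 and 24 within the vehicle and IL-33 groups. After the data were seen, Spearman's rho (26), both outlying tumors left out (29), the same with total counts (28), and the sum of Eno1 and Eno1b were added. Of the 34 genes, 1 was negatively correlated with total counts and 1 without vehicle replicate 4, and 0 in the other settings. For these correlations, shares of all genes are given only for all 16 tumors and without IL-33 replicate 7. The labels do not say whether the replicate numbers pair the tumors. Same-numbered deviations correlated at -0.32 to 0.35, and 1 of 8 vehicle tumors correlated best with its own number. These correlations over all genes include the outlying tumors and cannot exclude a pairing. With the block Ldhb lost its call, Pfkfb3 kept it (0.63), 1 of 35 was higher (1.46% of all genes) and 11 of 35 changed sign. Depth limits Car9, Adm, Aldoc and Ldhb most, with as few as 23, 32, 32 and 39 counts in a tumor. Eno2 had as few as 57 counts in a tumor and Pfkfb3 as few as 85.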

Other observations

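Of the wider hypoxia list, Lox was chosen for mention after its values had been seen. Lox, a crosslinker of collagen, ranged from 19.6 to 393 CPM (median 48.2) in vehicle tumors, highest in replicate 3, and from 14.2 to 92.7 (median 42.7) in IL-33 tumors. In edgeR, the log2 fold change (IL-33 over vehicle, ± SE) of Lox was -1.16 ± 0.58 (unadjusted p = 0.059) and -1.41 ± 0.59 (unadjusted p = 0.029) without IL-33 replicate 7. It was -0.34 (unadjusted p = 0.439) without vehicle replicate 3, so its size rested on that tumor. The fibroblast marker sum was also highest among vehicle tumors in replicate 3, at 6622 CPM, and its part in the value of Lox was not tested.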
